A study of Mus musculus with 6 samples.

Results

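The 9 genes described here are the Th1 lineage genes and the IFN-γ axis: the cytokine gene Ifng, its receptor chain gene Ifngr1, the IL-12 receptor genes Il12rb1 and Il12rb2, the signal transducer gene Stat4, and the transcription factor genes Tbx21, Eomes, Runx3 and Hlx. They were chosen by name from the 54532 genes of the deposited count table, and all 9 passed the filter on low counts, as did 15938 genes in all. RNA sequencing had been performed on CD4+ T cells isolated from mouse spleens by magnetic negative selection and activated for 72 h under Th1 conditions, that is on plate-bound anti-CD3 with anti-CD28, IL-2, IL-12 and anti-IL-4. The Th1 group held 3 cultures, and the ALX-5407 group held 3 cultures that also received ALX-5407 at 500 nM, a compound that blocks the glycine transporter GlyT1. The mice were male C57BL/6, some weeks old, with no transgene or deletion named, and the Th1 cultures received the DMSO vehicle. Below, untreated means with vehicle and without ALX-5407. The labels give a 72 h culture with ALX-5407 but no time of exposure, whereas the methods give an exposure shorter than the culture. Nothing states whether the cultures of a group came from separate mice, so the p-values measure the spread between these cultures. Because whole cultures were sequenced, fewer cells of a type and less RNA per cell cannot be told apart.

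Th1 cells are the helper T cells that make IFN-γ, the cytokine that activates macrophages. IL-12 binds a receptor of the chains encoded by Il12rb1 and Il12rb2 and activates STAT4, while IFN-γ binds a receptor of the chains encoded by Ifngr1 and Ifngr2, and both routes feed the T-box factor T-bet, the product of Tbx21. T-bet acts on Ifng together with RUNX3 and the homeobox factor HLX, and the related T-box factor Eomesodermin (Eomes) is best known from cytotoxic and memory lymphocytes. The comparison asked how the transcripts of this circuit differed when GlyT1 was inhibited during Th1 culture.

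The sequences upstream of the RefSeq transcript starts are shown for the 3 members in which letters bound by STAT or RUNX factors were found, since these factors belong to the circuit itself. RefSeq windows of 250 bases (GRCm38.p6) were present for 8 of the 9 members, 10 windows in all, and Il12rb1 had no entry. Matches were searched on both strands. Capitals mark TTCNNNGAA (STAT) in the first and second sequence and TGTGGT (RUNX), here on the opposite strand, in the third, and no marked stretch overlaps a match of another motif.
Ifng (chr10:118440796-118441045, + strand): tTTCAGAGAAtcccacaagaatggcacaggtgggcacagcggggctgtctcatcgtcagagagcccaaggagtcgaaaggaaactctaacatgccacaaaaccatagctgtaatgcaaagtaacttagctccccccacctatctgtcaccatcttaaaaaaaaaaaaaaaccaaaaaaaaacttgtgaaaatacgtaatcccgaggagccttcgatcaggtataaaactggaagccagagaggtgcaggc
Il12rb2 (chr6:67376189-67376438, - strand): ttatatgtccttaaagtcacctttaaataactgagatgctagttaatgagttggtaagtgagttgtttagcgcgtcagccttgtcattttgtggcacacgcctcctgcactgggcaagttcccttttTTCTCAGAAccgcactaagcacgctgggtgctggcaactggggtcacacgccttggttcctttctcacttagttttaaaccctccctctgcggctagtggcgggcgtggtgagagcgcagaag
Runx3 (chr4:135120395-135120644, + strand): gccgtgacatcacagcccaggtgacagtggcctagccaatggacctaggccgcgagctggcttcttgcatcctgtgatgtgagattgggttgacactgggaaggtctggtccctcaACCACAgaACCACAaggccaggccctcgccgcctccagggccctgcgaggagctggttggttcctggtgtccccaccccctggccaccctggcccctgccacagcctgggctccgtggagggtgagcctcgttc
The STAT letters lay from base -249 to -241 before the start of Ifng and from -123 to -115 before that of Il12rb2, and 7.02% of 32851 mouse windows of this length hold them on either strand. The RUNX letters were found at 2 places before the first start of Runx3 and in 14% of all windows. Neither the T-box letters GGTGTGA (3.33% of all windows) nor the AP-1 letters TGANTCA (6.75%) were in the 10 windows, and the NFAT letters GGAAAA (20.4%) were before Hlx and the second start of Stat4. As shown next, Ifng fell and Il12rb2 did not differ beyond the replicate spread, so members with the same letters had different values.

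The libraries held 30801753 to 36727788 counts, and the p-values below are those of the quasi-likelihood test in edgeR, adjusted by Benjamini-Hochberg over every gene tested. Mitochondrial genes held 2.67% to 3.12% of the counts in Th1 cultures and 1.94% to 2.05% in ALX-5407 cultures, with no overlap, and the part of this difference in the values below was not tested. Of the genes tested, 47.7% were called at an adjusted p-value under 0.05, 24.5% higher and 23.2% lower with ALX-5407, and 10% were called when a log2 fold change beyond ±1 was also required, 3.36% higher and 6.68% lower. Slc6a9, which encodes GlyT1, was at 6.18 ± 1.25 CPM (CPM, counts scaled to library size) in Th1 cultures and at 15.8 ± 1.14 CPM in ALX-5407 cultures (mean ± SD of 3), and transcript counts do not report inhibition of the transporter. The T cell markers of a list of 15 were all present, 3 higher and 7 lower, with a summed level of 5101 to 5466 CPM in Th1 cultures and 4897 to 5105 CPM in ALX-5407 cultures, and Cd4 itself went from 646 to 470 CPM (log2 fold change -0.46, edgeR, adjusted p = 0.000174).

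Of the 9 genes, 4 were called higher (Hlx, Il12rb1, Eomes and Tbx21), 4 were called lower (Stat4, Ifng, Ifngr1 and Runx3), and Il12rb2 was not called, which makes 8 of 9 called against 47.7% of all genes tested. With the fold change threshold, Hlx and Eomes were higher and Stat4 was lower. The CPM of the groups did not overlap for 8 of the 9, against 55.5% of all genes tested. All 9 had a mean of 132 counts or more, whereas these shares include genes of lower counts. The 9 were also chosen with earlier results of these data known. The genes moved in both directions, and their median log2 fold change was -0.01, while that of all genes tested was 0.01.

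**Figure D1:**
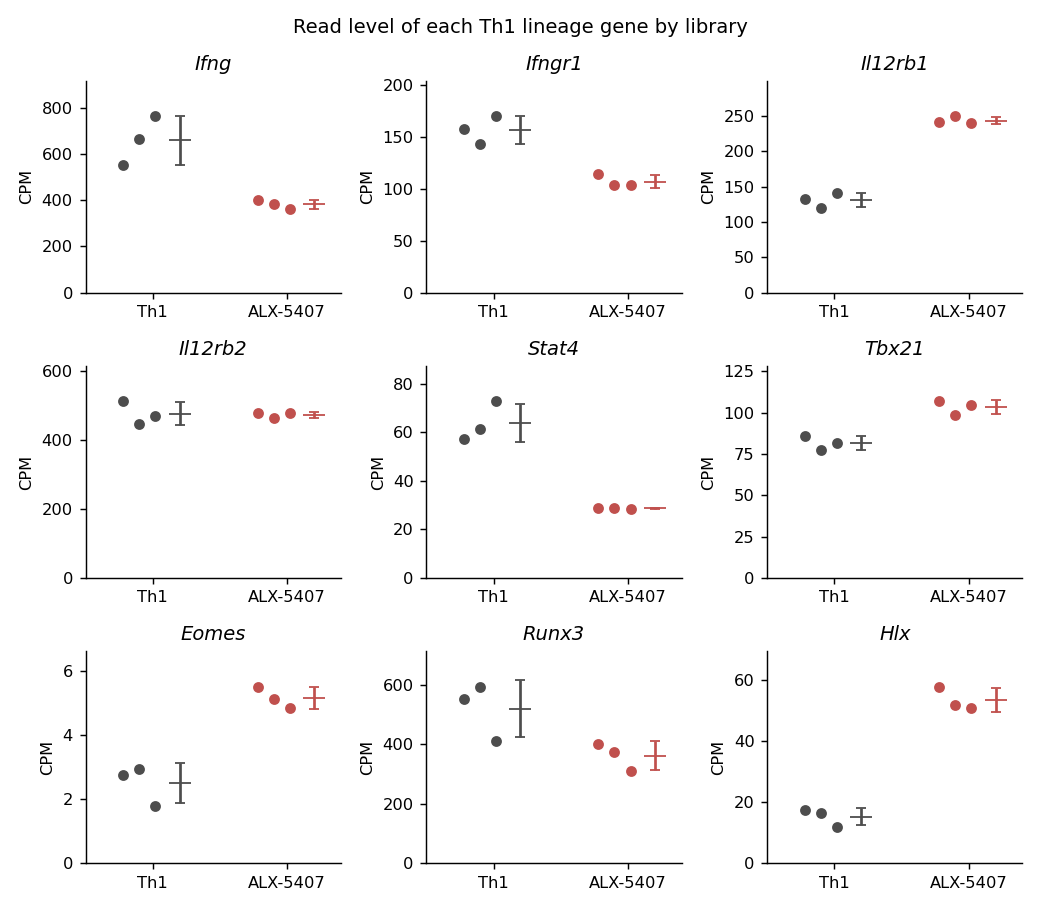
Level of each of the 9 genes in CPM (y axis, from 0) in the 3 Th1 and 3 ALX-5407 cultures; each point is a library in the order of replicates 1 to 3, and the bar beside them is the mean ± SD. The groups are apart in all panels but that of Il12rb2, and for Runx3 the lowest Th1 culture, at 411 CPM, is close to the highest ALX-5407 culture, at 401 CPM.

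Ifng (chromosome 10, 118441046 to 118445892, + strand) encodes IFN-γ, the effector cytokine of the lineage. Its level was 551, 665 and 764 CPM in the Th1 cultures and 400, 383 and 364 CPM in the ALX-5407 cultures. All 3 treated cultures were below the lowest untreated one, and the untreated cultures varied more among themselves. The means were 660 ± 106 and 383 ± 18.1 CPM (SD, n = 3 each), that is a log2 fold change of -0.79 ± 0.0967 (SE; edgeR, adjusted p = 5.75e-06), and the level was 1.73-fold higher in the Th1 cultures. At this reduced level Ifng was still an abundant transcript, at the 99.2nd percentile of all genes tested per exon length, compared with 99.4 before.

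The count table also lists AC153498.1 (chromosome 10, 118441419 to 118444140, + strand), a single-exon gene model of no assigned product that lies inside Ifng on the same strand. In GENCODE M21, 90.9% of its 2722 bases lie outside the 4 exons of the longer Ifng transcript. With the exons of both annotated Ifng transcripts merged, 336 bases are shared, which is 25.9% of the merged Ifng exons. The level of AC153498.1 was 21.7, 26.3 and 26.1 CPM in the Th1 cultures and 29.6, 30.5 and 33.8 CPM in the ALX-5407 cultures, so that all 3 treated cultures were above the untreated ones. Its log2 fold change was 0.34 ± 0.0982 (SE; edgeR, adjusted p = 0.009), opposite in sign to that of Ifng. The ratio of Ifng to AC153498.1 within a library, which does not depend on library scaling, was 26.6 ± 2.29 in Th1 cells and 12.3 ± 1.41 with ALX-5407 (SD, n = 3 each). The 2 groups of ratios did not overlap (difference of -1.12 in log2, two-sided exact permutation test, p = 0.1, the smallest p that 3 against 3 cultures allow). Which reads were given to which of the overlapping models is not given in the sources used here, and this ratio was computed after the overlap had been seen. With the counts of both models summed, the log2 fold change of Ifng was -0.73 (edgeR, adjusted p = 1.12e-05).

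**Figure D2:**
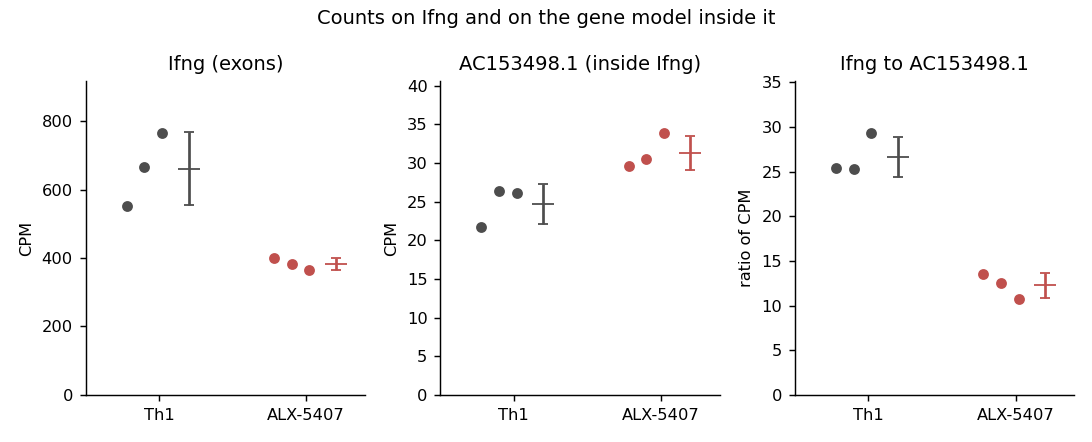
CPM of Ifng (left), CPM of AC153498.1, the gene model inside Ifng (middle), and their ratio (right) in each library of both groups, with mean ± SD beside the points and axes from 0. Ifng was lower and AC153498.1 higher in each ALX-5407 culture than in any Th1 culture, and the ratio went from 26.6 to 12.3.

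Ifngr1 (chromosome 10, 19591949 to 19610229, + strand) encodes the ligand-binding chain of the IFN-γ receptor. Its level was 158, 143 and 170 CPM in Th1 cultures and 114, 104 and 103 CPM with ALX-5407, with no overlap. The log2 fold change was -0.55 ± 0.0788 (SE; edgeR, adjusted p = 2.59e-05). The partner chain gene Ifngr2, which is not among the 9, fell from 19.3 to 11.7 CPM (log2 fold change -0.73, edgeR, adjusted p = 3.77e-05), so that transcripts of both receptor chains were lower.

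Il12rb1 (chromosome 8, 70808449 to 70821424, + strand) encodes the IL-12 receptor chain that is shared with the IL-23 receptor. It had 132, 120 and 141 CPM in the Th1 cultures and 241, 250 and 240 CPM in the ALX-5407 cultures. Every treated culture lay well above the untreated ones, and the replicate spread was small in both groups. The mean rose from 131 ± 10.4 to 244 ± 5.35 CPM (SD, n = 3 each), which is 1.85-fold (log2 fold change 0.89, SE 0.0744, edgeR, adjusted p = 1.04e-07).

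Il12rb2 (chromosome 6, 67291318 to 67376188, - strand) encodes the chain that makes the receptor specific for IL-12 and recruits STAT4. Its level was 511, 446 and 468 CPM in Th1 cultures and 477, 462 and 479 CPM with ALX-5407, and all treated cultures lay within the untreated range. The log2 fold change was -0.01 (95% confidence interval -0.16 to 0.15, edgeR, adjusted p = 0.949), an interval that does not reach the estimate of any of the 8 other members. The opposite-strand gene Serbp1 shares 40.0% of the exon bases of Il12rb2, fell from 1030 to 819 CPM (log2 fold change -0.33, edgeR, adjusted p = 0.00265), and could affect the count of Il12rb2 if strand was not used in counting, which was not tested. The ratio of Il12rb2 to Il12rb1 per exon length was 4.18, 4.01 and 3.58 in Th1 cultures and 2.14, 2.00 and 2.16 with ALX-5407. The mean of this transcript ratio thus went from 3.92 ± 0.304 to 2.10 ± 0.0845 (SD, n = 3 each; two-sided exact permutation test, p = 0.1, the smallest possible). The overlap with Serbp1 bears on the size of this ratio as well, and transcripts do not give the amounts of the receptor chains.

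Stat4 (chromosome 1, 51987148 to 52107189, + strand) encodes the transcription factor that carries the IL-12 signal to the nucleus, and it had the largest decrease among the 9 genes. Its level was 57.4, 61.6 and 72.8 CPM in Th1 cultures and 29.0, 28.7 and 28.3 CPM with ALX-5407. The treated cultures were nearly alike, at less than the lowest untreated value. The mean was 2.23-fold higher in Th1 cells (63.9 ± 7.94 against 28.6 ± 0.355 CPM, SD, n = 3 each), that is a log2 fold change of -1.16 ± 0.0908 (SE; edgeR, adjusted p = 5.55e-08). Per exon length it went from the 80.2nd to the 62.4th percentile of all genes tested. Gm28177, a transcript on the same strand that covers 26.7% of the exon bases of Stat4, was listed at 0.527 and 0.288 CPM. How reads on both models were treated is not given, and the effect of this overlap on the Stat4 count was not tested.

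Tbx21 (chromosome 11, 97098071 to 97115331, - strand) encodes T-bet, the defining transcription factor of Th1 cells. It had 85.8, 77.7 and 81.5 CPM in Th1 cultures and 107, 98.9 and 105 CPM with ALX-5407. All treated cultures were above the untreated ones, by less than for the other members that rose. The log2 fold change was 0.34 (95% confidence interval 0.19 to 0.49, SE 0.0720, edgeR, adjusted p = 0.000941), a 1.27-fold rise. Ifng and Tbx21 thus moved in opposite directions, and the ratio of Ifng to Tbx21 per exon length was 12.4, 16.4 and 18.0 in Th1 cultures and 7.20, 7.45 and 6.67 with ALX-5407 (two-sided exact permutation test, p = 0.1, the smallest possible).

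Eomes (chromosome 9, 118478212 to 118486132, + strand) encodes Eomesodermin, the T-box relative of T-bet. It was counted at 90, 92 and 55 reads in Th1 cultures and 195, 192 and 170 reads with ALX-5407, by far the lowest counts of the 9 genes. In CPM it rose from 2.50 ± 0.619 to 5.17 ± 0.337 (SD, n = 3 each), which is 2.07-fold (log2 fold change 1.05, SE 0.204, edgeR, adjusted p = 0.000485). Tbx21 nonetheless stayed far above Eomes, with a ratio per exon length of 44.2 to 76.2 in Th1 cultures and 32.1 to 36.1 with ALX-5407.

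Runx3 (chromosome 4, 135120652 to 135177990, + strand) encodes a Runt factor that binds Ifng together with T-bet and silences Il4. Its level was 553, 594 and 411 CPM in Th1 cultures and 401, 374 and 309 CPM with ALX-5407. The groups did not overlap, but the third Th1 culture was near the treated ones, and the third culture was the lowest of each group. The log2 fold change was -0.52 ± 0.117 (SE; edgeR, adjusted p = 0.00155), and it ranged from -0.68 without Th1 replicate 3 to -0.42 without ALX-5407 replicate 3.

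Hlx (chromosome 1, 184727140 to 184732619, - strand) encodes a homeobox factor induced by T-bet that favours IFN-γ production, and it had the largest change of the 9 genes. Its level was 17.2, 16.5 and 11.8 CPM in Th1 cultures and 57.7, 51.6 and 50.8 CPM with ALX-5407. The lowest treated culture was far above the highest untreated one. The mean rose 3.51-fold, from 15.2 ± 2.92 to 53.4 ± 3.81 CPM (SD, n = 3 each), that is a log2 fold change of 1.81 ± 0.119 (SE; edgeR, adjusted p = 7.74e-09). In absolute size this exceeded the change of 97.4% of all genes tested, whereas that of Tbx21 exceeded 48.0%.

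**Figure D3:**
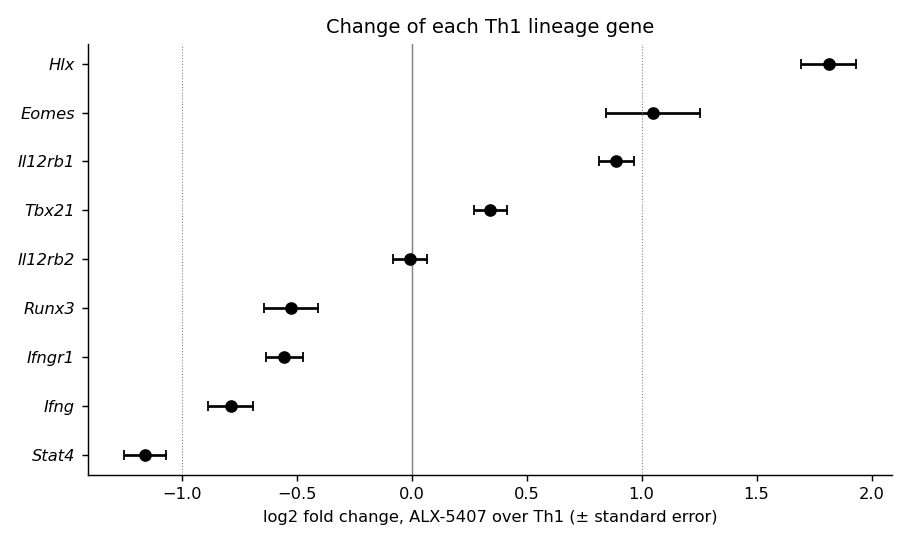
Log2 fold change of ALX-5407 over Th1 cultures (x axis; points with standard error bars from edgeR, 3 cultures per group) for each of the 9 genes, ordered by size. Hlx (1.81) and Eomes (1.05) lie above the dotted line at 1, Stat4 (-1.16) lies below that at -1, and Il12rb2 is at 0.

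Levels were compared between genes per kb of exon. Other gene models share 25.9% of the exon bases of Ifng, 26.7% of those of Stat4 and 40.0% of those of Il12rb2. The effect of these overlaps on the order was not tested. In Th1 cultures Ifng stood highest at 510 ± 82.2 CPM per kb, followed by Il12rb2 (125 ± 8.69), Runx3 (104 ± 19.2), Ifngr1 (55.2 ± 4.74), Tbx21 (32.8 ± 1.63), Il12rb1 (32.0 ± 2.53), Stat4 (16.5 ± 2.05), Hlx (6.66 ± 1.28) and Eomes (0.601 ± 0.149, SD, n = 3 each). In this order the libraries of Il12rb2 and Runx3 overlapped, and so did those of Tbx21 and Il12rb1. With ALX-5407 the order was Ifng (295 ± 14.0 CPM per kb), Il12rb2 (125 ± 2.33), Runx3 (72.3 ± 9.49), Il12rb1 (59.3 ± 1.30), Tbx21 (41.6 ± 1.67), Ifngr1 (37.6 ± 2.22), Hlx (23.4 ± 1.67), Stat4 (7.40 ± 0.0916) and Eomes (1.24 ± 0.0812, SD, n = 3 each). Here the libraries of Tbx21 and Ifngr1 overlapped. Il12rb1 had moved above Ifngr1 and Tbx21, and Hlx had moved above Stat4.

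**Figure D4:**
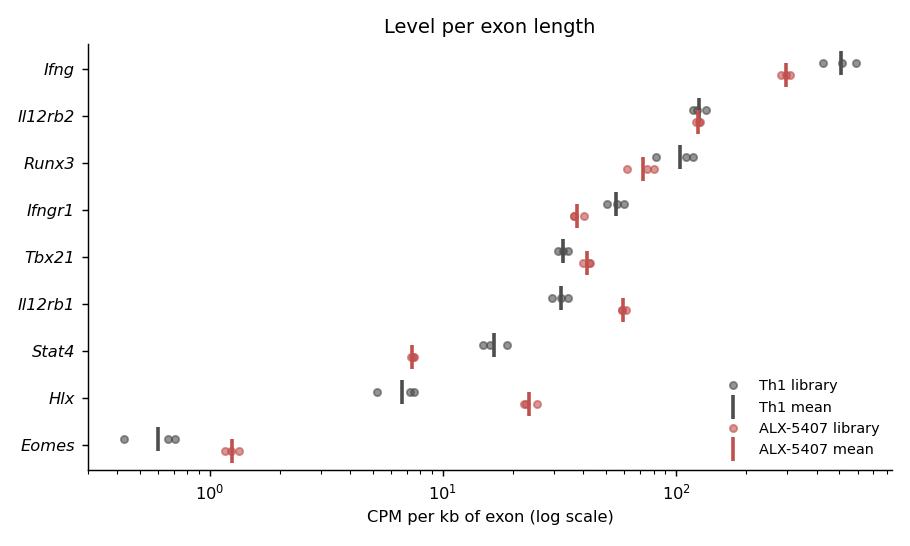
CPM per kb of exon (log scale) of the 9 genes in each library (points) with the group mean (vertical bars), ordered by the Th1 mean. Ifng is highest and Eomes lowest in both groups, and Hlx (6.66 to 23.4) and Stat4 (16.5 to 7.40) change places.

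The genes around the circuit were described by lists compiled from general knowledge, but with earlier results of these data known. Their counts are therefore a description and not independent support. The counts of each list stand against 24.5% higher and 23.2% lower among all genes tested. Some lists, those of transcription factors and of cofactors among them, mix genes that promote and genes that restrain IFN-γ production. Their counts and medians therefore give no direction for the Th1 lineage. Of 16 genes of IL-12 and IL-18 signalling, 3 of them among the 9 genes, 5 were higher and 5 lower, with a median log2 fold change of -0.01. Il18r1 and Il18rap encode both chains of the receptor for IL-18, the cytokine that acts with IL-12 on Ifng, and both fell, from 160 to 94.5 CPM (log2 fold change -0.76, edgeR, adjusted p = 1.20e-06) and from 30.0 to 20.2 CPM (-0.57, adjusted p = 0.000625). Stat3 fell from 929 to 608 CPM (log2 fold change -0.61), and Mapk14, the p38 kinase gene downstream of the IL-18 receptor, rose from 50.1 to 89.2 CPM (0.83, edgeR, adjusted p = 1.21e-07).

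Of 16 genes of IFN-γ receptor signalling, 4 were higher and 5 lower, with a median of -0.05. Lower were both receptor chains, Stat3, Ptpn2, a phosphatase that dampens JAK-STAT signals (230 to 137 CPM, log2 fold change -0.75), and Usp18, a negative regulator of interferon signalling (32.3 to 14.9 CPM, -1.12, edgeR, adjusted p = 2.22e-07). Of 48 genes that IFN-γ induces, 43 were tested, 27 were higher and 3 were lower, with a median of 0.28. The 27 genes thus differed in the direction opposite to Ifng, and of all genes tested 24.5% were higher and 23.2% lower. Gbp7 and Gbp4, guanylate-binding proteins of cell-autonomous immunity, went from 32.1 to 117 CPM (log2 fold change 1.87) and from 116 to 256 CPM (1.14), Iigp1, an immunity-related GTPase, from 13.2 to 36.7 CPM (1.47), and Cd74, the invariant chain of MHC class II, from 14.1 to 40.1 CPM (1.51, edgeR, adjusted p = 1.07e-08). The GTPase families have close copies among which reads could be shared, and type I interferon induces many of the same genes.

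Of 34 genes that T-bet activates or that Th1 effector cells use, 2 of them among the 9 genes, 13 were higher and 14 lower, with a median of -0.06. Serpinb6b, a protease inhibitor, fell from 261 to 63.5 CPM (log2 fold change -2.04) and Ctsw, a cathepsin of cytotoxic cells, from 138 to 57.6 CPM (-1.27), whereas Spp1, which encodes osteopontin, rose from 22.0 to 66.7 CPM (1.60) and Il10 from 36.4 to 83.3 CPM (1.19, edgeR, adjusted p = 2.98e-08). Of 28 transcription factor genes of Th1 cells, 5 of them among the 9 genes, 12 were higher and 10 lower, with a median of 0.08. Prdm1, which encodes Blimp-1, rose from 19.0 to 89.7 CPM (log2 fold change 2.24, edgeR, adjusted p = 4.47e-11) and Nfatc1 from 90.7 to 176 CPM (0.96), while Runx2 fell from 61.8 to 33.2 CPM (-0.90) and Twist1, a repressor that T-bet and STAT4 induce, from 6.25 to 1.63 CPM (-1.93, edgeR, adjusted p = 5.31e-07).

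Of 32 genes that oppose Th1 cells or mark other helper lineages, 31 were tested, 11 were higher and 13 lower, with a median of -0.12. Maf and Smad3 rose (log2 fold changes of 1.30 and 1.03), and Il23r and Ahr, genes of Th17 cells, fell (-2.04 and -1.52, the largest adjusted p of these 4 being 7.14e-08 from edgeR). Gata3, the factor that defines Th2 cells, had 8.67 and 10.8 CPM and was not called, and the ratio of Tbx21 to Gata3 per exon length was 15.3 ± 2.31 and 15.6 ± 3.11 (SD, n = 3 each; two-sided exact permutation test, p = 0.9). Of 24 genes for chromatin and RNA-binding cofactors of Ifng expression, 13 were higher and 3 lower, with a median of 0.27. Tet2, a DNA demethylase, fell from 372 to 157 CPM (log2 fold change -1.24), whereas Dnmt1, the maintenance DNA methyltransferase, rose from 267 to 475 CPM (0.83), and Rc3h1 and Zfp36l1, which encode the mRNA-destabilizing proteins Roquin-1 and ZFP36L1, rose from 53.1 to 82.2 CPM (0.63) and from 28.5 to 48.0 CPM (0.75, edgeR, adjusted p = 7.48e-06).

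**Figure D5:**
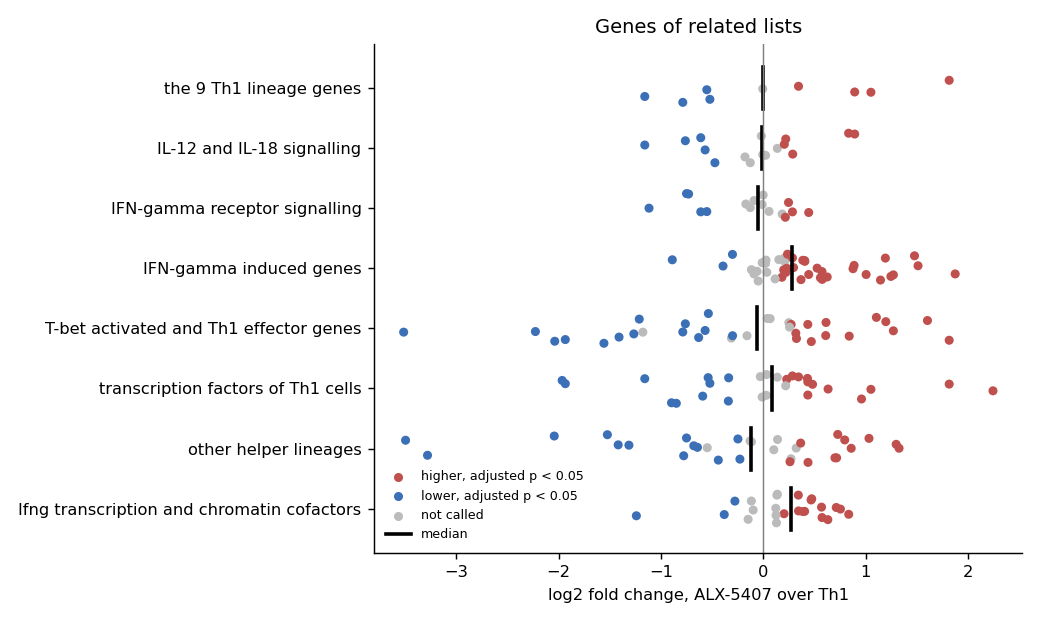
Log2 fold change of ALX-5407 over Th1 cultures (x axis) for each tested gene of 8 lists, with black bars at the list medians; red and blue mark genes higher or lower at an adjusted p-value under 0.05 in edgeR and grey the others. IFN-γ induced genes (27 higher, 3 lower) and the cofactor list (13 higher, 3 lower) lie mostly to the right, and the 9 Th1 lineage genes lie on both sides of 0.

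Within 250 kb of the 9 genes, the count table holds 163 other genes, of which 72 were tested, 17 were higher and 23 lower. Among all genes tested, 24.5% were higher and 23.2% lower. Near Ifng, 5 genes were tested. Il22, a cytokine gene 236 kb upstream of the start of Ifng, fell with it, from 3.18 ± 0.428 to 1.45 ± 0.157 CPM (SD, n = 3 each; log2 fold change -1.13, edgeR, adjusted p = 0.000739). Ifngas1, the noncoding RNA beyond the end of Ifng, had 1.27 ± 0.333 and 1.08 ± 0.640 CPM (SD, n = 3 each; edgeR, adjusted p = 0.663), and the pseudogenes Gm9030 and Gm9029 were not called either. Il23r lies 116 kb upstream of the start of Il12rb2, and it fell, whereas Il12rb2 was not called.

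The genes most like Tbx21 across the 6 libraries, by Pearson's r of log2 CPM among 12116 genes with a mean of 50 counts or more, were Tmem8, Sass6 and Srxn1 (r from 0.997 to 0.998), and those most like Ifng were Glrx3, Ppib and Zup1 (r from 0.994 to 0.997). As these libraries form 2 groups, 802 genes had r above 0.95 with Tbx21 and 433 with Ifng.

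Markers of other cells that a selected culture could hold were summed by list. Their counts of higher and lower genes stand against 24.5% and 23.2% of all genes tested. Ncr1 and Klrb1c, defining genes of NK cells, were at 0.221 CPM or less in both group means, and the list of 12 NK and innate lymphoid genes summed to 61.5 to 74.4 CPM in Th1 cultures and 51.8 to 60.9 CPM with ALX-5407, 2 of them lower and 0 higher. Cd8a and Cd8b1 together had 9.25 to 9.59 CPM and 6.71 to 8.87 CPM, and 6 γδ and NKT cell genes had 18.9 to 25.2 CPM and 14.8 to 18.3 CPM. The 8 B cell genes summed to 64.1 to 70.5 CPM and 78.6 to 81.2 CPM, with 4 higher. The 12 myeloid genes summed to 86.4 to 97.7 CPM and 32.0 to 38.7 CPM, with 1 higher and 2 lower. The lower ones, Ly6g (72.1 and 27.0 CPM) and Cd68 (18.3 and 5.44 CPM), made up most of this sum. Mpeg1 was the higher one (0.264 and 1.39 CPM, log2 fold change 2.37). The other 9 were under 1 CPM in every library, with S100a8 and S100a9 at 0. The 6 erythroid and platelet genes summed to 3.90 to 5.65 CPM and 7.59 to 10.2 CPM. The part of such other cells in the values of the 9 genes and of the list genes, Cd74 among them, was not tested.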

How the data were processed

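The authors deposited raw counts, whole numbers of reads per gene and library without normalization, with gene names, GRCm38 coordinates and lengths. The submitters' processing notes name fastp, HISAT2 2.0.5 and featureCounts 1.5.0-p3 with mm10, and the use of strand and the treatment of reads on overlapping genes or on several places are not given in the sources used here. The labels describe poly(A) capture, whereas the methods describe depletion of ribosomal RNA.

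Groups and replicate numbers came from the labels. edgeR 4.0.16 (R 4.3.3) was run on all 54532 genes with filterByExpr (minimum count 10, minimum total 15), TMM scaling and quasi-likelihood F tests, the p-values of all 15938 tested genes being adjusted by Benjamini-Hochberg, and the procedure was tested on simulated counts. Standard errors were obtained from the fold change and its F statistic. Genes were called at an adjusted p-value under 0.05, and the study's threshold of an absolute log2 fold change over 1 is given beside it. CPM used TMM-scaled library sizes, and levels per kb used the lengths in the file, which equal the merged exons of GENCODE M21 for the 9 genes. Log2 ratios within libraries were compared by exact permutation. No 2 libraries of a group were alike within counting error (chi-square per degree of freedom 5.65 to 22.4 between replicates). Depth was 30801753 to 36727788 counts per library, and the mean count of the 9 genes was lowest for Eomes, at 132. Genes named are the 9 members, in each list up to 4 other called genes of lowest p, the neighbours of Ifng, the 3 genes most like Tbx21 and Ifng and Slc6a9. Names outside this rule (Gata3, Serbp1, Gm28177, Il23r as a neighbour and single marker genes) were chosen after their values were seen. The 9 genes and all lists were chosen with earlier results of these data known. Alternatives were other scalings and filters, DESeq2 1.42.0, limma-voom (limma 3.58.1), protein-coding genes alone, Ifng summed with AC153498.1 (chosen after seeing the data), a replicate block, the fold change threshold and each library left out. Figures were drawn with matplotlib 3.10.9.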

Additional observations from a re-analysis of the deposited data

How the results depend on the processing

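The calls of the 9 genes were the same, 4 higher and 4 lower, under each scaling, filter, tool, gene class and the replicate block, and with each library left out. With the fold change threshold of 1 added, 2 were higher and 1 lower. Il12rb2 was not called under any of these, and its log2 fold change was 0.052 with total counts alone, 0.0030 without a filter on low counts, and -0.063 to 0.041 with 1 library left out, above 0 without Th1 replicate 1 (0.041) and without ALX-5407 replicate 2 (0.014). Leaving out 1 library gave log2 fold changes of -0.91 to -0.68 for Ifng, -1.24 to -1.07 for Stat4, 1.65 to 1.90 for Hlx, 0.82 to 0.93 for Il12rb1, 0.84 to 1.17 for Eomes and 0.29 to 0.38 for Tbx21, and the largest adjusted p of the 8 called genes over all alternatives was 0.0181, for Runx3 in DESeq2. The lowest counts, those of Eomes, had the widest standard error.

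Among the lists, IL-12 and IL-18 signalling had 3 genes higher in place of 5 with upper-quartile scaling and with protein-coding genes alone, and 3 to 5 with 1 library left out, the lowest without Th1 replicate 2. IFN-γ induced genes had 28 higher in place of 27 with total counts alone and 23 with upper-quartile scaling. They had 24 higher with protein-coding genes alone and 21 without ALX-5407 replicate 1, and 3 were lower in each of these settings. With the fold change threshold, the counts of higher and lower genes were 536 and 1064 of all genes tested, 0 and 1 for IL-12 and IL-18 signalling, 0 and 1 for IFN-γ receptor signalling, 8 and 0 for IFN-γ induced genes, 5 and 8 for T-bet activated and effector genes, 3 and 3 for transcription factors, 3 and 6 for other helper lineages and 0 and 1 for the cofactors of Ifng. The cause was not tested beyond the stricter threshold itself.

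Replicate numbers are shared between the groups, but same-numbered libraries did not deviate together (correlations of -0.0084, 0.0036 and 0.063, and 2 of 6 libraries correlated best with their own number). With the replicate number as a block, 4071 genes were higher and 3833 lower, against 3910 and 3695 without it.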
